A study of Homo sapiens with 18 samples.

Results

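The sensors, adaptor, caspases and pore-forming protein of the inflammasome, 10 genes in all, were followed in THP-1, a human line of leukaemic monocytes kept as a suspension culture. They are NLRP3, NLRP1, NLRC4, NAIP, AIM2, PYCARD, CASP1, CASP4, CASP5 and GSDMD, chosen by name, and all 10 had counts among the 63677 genes of the table. Each gene was measured in 18 libraries that form 6 groups of 3. Cells carried an siRNA against TRAFD1 (KD, 25 nM), a scrambled siRNA (SCR, 25 nM) or no siRNA (WT), and 72 h after transfection they received lipopolysaccharide (LPS) at 10 ng/ml or medium alone for 4 h. The descriptions differ on WT, which is called untreated in one place and given the transfection mix without siRNA in another, so that for SCR against WT the effects of reagent and siRNA cannot be told apart. All groups are of 1 cell line. The methods say that each treatment was run 3 times and do not say whether on separately grown cultures, so the p-values measure the spread between these libraries, which may be technical. TRAFD1 was lowered by siRNA and not deleted.

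An inflammasome is a protein complex that forms in the cytosol when a sensor meets a microbial product or a sign of damage. NLRP3, NLRP1, NLRC4 with its partner NAIP, and AIM2 are sensors of different signals. The adaptor ASC, encoded by PYCARD, links sensors to caspase-1, which matures the cytokines IL-1beta and IL-18, and caspase-4 and caspase-5 bind LPS inside the cell. Caspases cleave gasdermin D, whose N-terminal part opens pores in the plasma membrane and leads to the lytic death called pyroptosis. In monocytic cells LPS is commonly used as the first, priming signal, which acts through transcription before a separate signal triggers assembly.

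The sequences before the start sites of AIM2, NLRP3 and NLRC4 are shown because these genes carry differences described below. They are the 250 bases upstream of RefSeq starts on GRCh38.p14, a table that held 6 of the 10 members (CASP1, NAIP, NLRP1 and GSDMD had no entry). For AIM2 (chr1:159076767-159077016, minus strand) the capitals mark a match, on the reverse strand, to GAAA followed after any 2 bases by GAAA, the core of the element through which interferons act, at bases -190 to -181 from the start. For NLRP3 (chr1:247415923-247416172, plus strand) they mark TATAAA at -29 to -24, and for NLRC4 (chr2:32265621-32265870, minus strand), the second of its 3 listed starts, a reverse TATAAA at -110 to -105.
AIM2: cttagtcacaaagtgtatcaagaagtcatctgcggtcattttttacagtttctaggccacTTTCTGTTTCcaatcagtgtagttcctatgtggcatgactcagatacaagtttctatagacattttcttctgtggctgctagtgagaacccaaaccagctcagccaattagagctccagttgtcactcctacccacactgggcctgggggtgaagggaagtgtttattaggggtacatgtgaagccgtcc
NLRP3: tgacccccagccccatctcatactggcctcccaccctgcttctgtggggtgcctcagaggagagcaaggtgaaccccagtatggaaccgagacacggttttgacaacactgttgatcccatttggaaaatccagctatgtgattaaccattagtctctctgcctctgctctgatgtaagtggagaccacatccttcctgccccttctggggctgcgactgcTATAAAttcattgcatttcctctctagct
NLRC4: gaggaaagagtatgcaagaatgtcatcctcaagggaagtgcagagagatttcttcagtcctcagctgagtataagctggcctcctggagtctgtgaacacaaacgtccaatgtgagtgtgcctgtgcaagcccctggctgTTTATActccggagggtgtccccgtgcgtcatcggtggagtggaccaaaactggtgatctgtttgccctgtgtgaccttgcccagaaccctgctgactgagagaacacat
Both strands of 35116 windows of the same length were searched. The interferon element was present in 3.02% of them and TATAAA in 10.7%. TTCNNNGAA, the gamma-activated site, was present in 6.57%, and an NF-kB motif in 9.96%. Among the members the NF-kB motif had no match in the windows held, and PYCARD and CASP4 matched none of the 4 motifs. The NLRC4 starts not shown also matched none, and the start shown was the one with a match. A match describes letters only, and factor binding was not measured.

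CASP4 and CASP5 are neighbouring paralogs on chromosome 11 and are shown as an aligned pair, since the measured counts of CASP5 were near the detection floor while CASP4 was counted in every library. In the lines for CASP4 (chr11:104968575-104968824) and CASP5 (chr11:105023169-105023418), both on the minus strand, capitals mark bases that are identical in the alignment.
CASP4: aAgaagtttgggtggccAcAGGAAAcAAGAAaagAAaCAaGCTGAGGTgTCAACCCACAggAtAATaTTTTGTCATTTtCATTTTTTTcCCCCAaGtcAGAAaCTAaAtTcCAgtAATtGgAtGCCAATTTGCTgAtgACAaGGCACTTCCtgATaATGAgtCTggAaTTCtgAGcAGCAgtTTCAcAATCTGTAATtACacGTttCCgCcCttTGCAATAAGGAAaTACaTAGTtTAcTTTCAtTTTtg
CASP5: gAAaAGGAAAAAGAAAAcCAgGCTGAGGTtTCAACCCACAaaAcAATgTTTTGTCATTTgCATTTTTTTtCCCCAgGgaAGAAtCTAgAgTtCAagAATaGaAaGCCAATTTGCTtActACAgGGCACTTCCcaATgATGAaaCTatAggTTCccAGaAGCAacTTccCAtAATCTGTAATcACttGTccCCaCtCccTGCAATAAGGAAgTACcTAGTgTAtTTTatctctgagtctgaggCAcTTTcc
Of the 250 bases, 174 were identical, 57 were mismatched and the rest stood against gaps, giving 75.3% identity over aligned bases and 69.6% over the window. For the other pairs of members the share of the window was 45.2% to 54.4%. NLRC4 was taken there at its first listed start (chr2:32265744-32265993), not the one printed above. CASP5 held a pair of overlapping interferon element matches at its far end (first bases -250 and -244) and a TTCNNNGAA match at -100, which the aligned bases of CASP4 did not hold.

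Total counts ran from 8206023 to 22344279 per library, and 3 counts, the limit that a count of 0 allows, equalled 0.133 to 0.378 CPM (counts in every 1000000 of the library total after TMM scaling). This covers counting error only. Libraries were made by QuantSeq, which reads the 3' end of polyadenylated RNA, and levels below are compared within a gene between libraries, not between genes. TRAFD1 checked the siRNA labels. In medium it stood at 20.1 to 26.8 CPM in SCR and 5.36 to 11.6 CPM in KD (-1.45 as log2 fold change with SE 0.23, adjusted p = 0.0277 by edgeR). That p was 0.0640, 0.119 and 0.112 when KD replicate 2, SCR replicate 1 or SCR replicate 3 was left out, and 0.0847 on these 6 libraries alone. With LPS, TRAFD1 was 18.7 to 27.4 CPM in SCR and 13.8 to 15.8 CPM in KD (-0.65, SE 0.22, adjusted p = 0.262, which became 0.0275 with no filter and 0.0158 by DESeq2 on these 6 libraries). TNF, IL1B, CXCL8, CXCL10 and NFKBIA, known LPS targets, rose with LPS in all 3 conditions. In medium, means in WT, SCR and KD were 15.9, 43.2 and 43.2 CPM for TNF and 252, 389 and 292 CPM for NFKBIA. For CXCL10 they were 2.25, 9.14 and 4.93 CPM. Among TRAFD1, TNF, CXCL8, CXCL10 and NFKBIA, edgeR called 3 higher and 0 lower in SCR than in WT in medium. It called the LPS response of 3 lower in SCR than in WT, and of 1 lower in KD than in WT. How this bears on the LPS responses of the members was not tested. All 10 monocytic markers were tested and summed to 639 to 824 CPM per library, and of 15 markers of other cell types 5 were tested and 9 never exceeded 3 counts. KD replicate 1 in medium differed most from its group, with up to 36.2 units of chi-square per gene against at most 19.3 between pairs of libraries that do not include it.

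The filter on low counts left 9 of the 10 members among 16678 genes. LPS lowered 3 sensors and raised CASP4 in WT, lowered NLRC4 and raised AIM2 in SCR, and lowered NLRC4 in KD. In WT, 4 of the 9 tested members passed an adjusted p of 0.05, where 14.3% of all genes tested did. By direction, 1 member rose (7.01% of all genes) and 3 fell (7.26%). In SCR 2 members passed beside 17.2% of all genes, of which 1 rose (8.64%) and 1 fell (8.56%). In KD 1 member passed and fell beside 11.5% of all genes (5.05% fell and 6.41% rose). The median log2 fold change of the members was -0.17 in WT, -0.14 in SCR and -0.11 in KD, beside -0.03, -0.03 and 0.00 over all genes tested. The 3 LPS responses use separate libraries, so none shares a control with another. Lack of overlap between groups is given below as a description. Its share over all genes is not given for the LPS responses. In KD against SCR that share was 15.1% in medium and 21.5% with LPS. The share of counts from the mitochondrial genome was also higher with LPS, without overlap in WT (3.19% to 3.37% in medium, 3.82% to 4.45% with LPS) and SCR (3.28% to 3.47% and 3.72% to 5.204%) and with overlap in KD (3.87% to 4.86% and 4.28% to 5.14%). In medium it was higher in each KD library than in each SCR library, and its part in these results was not tested. In bulk RNA, fewer cells of a type and less RNA per cell cannot be told apart.

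**Figure D1:**
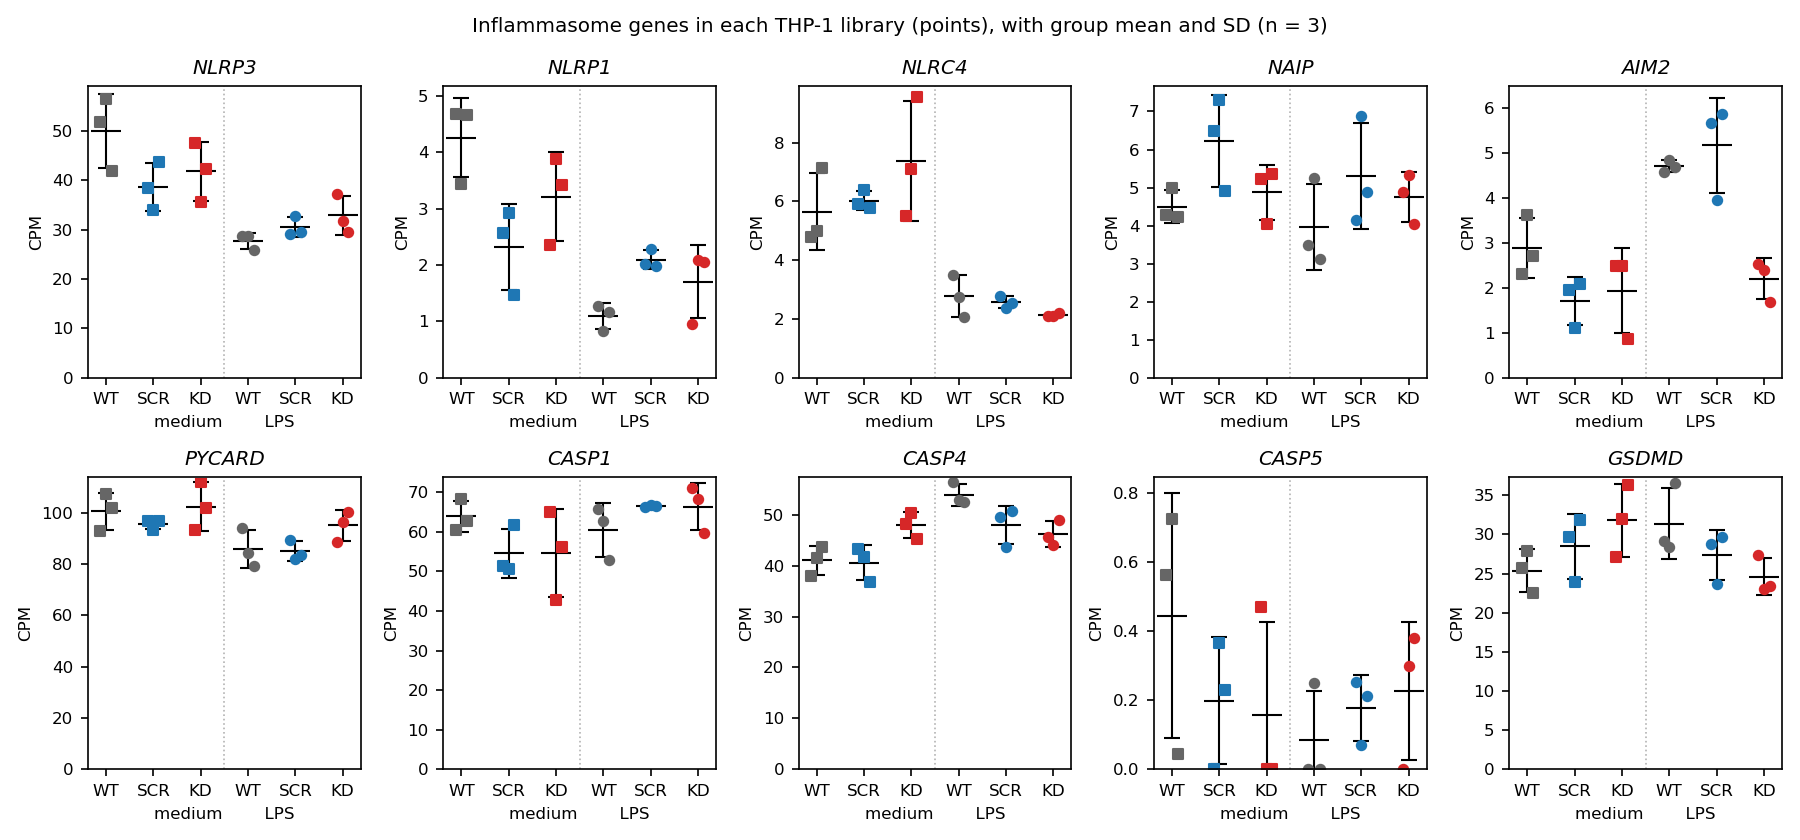
Level of each of the 10 genes in CPM (vertical axis, from 0) in the 6 groups (horizontal axis), with medium as squares and LPS as circles. Points are the 3 libraries and bars the mean and SD. NLRC4 lies lower in every LPS library than in any library in medium, and AIM2 with LPS is lower in the 3 KD libraries than in the WT and SCR libraries.

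NLRP3 (chr1:247579458-247612410, GRCh37, plus strand) detects loss of potassium and membrane damage. In medium WT held 51.9, 56.5 and 41.8 CPM, SCR held 38.4, 34.0 and 43.7 CPM and KD held 47.5, 35.6 and 42.4 CPM. LPS gave 28.7, 28.7 and 25.8 CPM for WT, 29.2, 32.8 and 29.6 CPM for SCR and 37.4, 31.9 and 29.5 CPM for KD. The LPS libraries lay below those in medium without overlap in WT and SCR, and 1 KD library with LPS overlapped the KD libraries in medium. NLRP3 fell in WT with a log2 fold change of -0.85 (SE 0.14, adjusted p = 1.6e-04 by edgeR), and this call held in each fit that left out 1 library. The change was -0.34 (SE 0.14, adjusted p = 0.0976) in SCR and -0.35 (SE 0.14, adjusted p = 0.107) in KD. WT in medium held the highest group mean (50.1 ± 7.5 CPM, SD, n = 3), and WT with LPS the lowest (27.7 ± 1.7 CPM, n = 3), while the 3 LPS groups lay within 25.8 to 37.4 CPM.

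NLRP1 (chr17:5402735-5522744, minus strand) senses proteases and long double-stranded RNA. It was counted 10 to 105 times per library. In medium WT held 4.68, 3.45 and 4.66 CPM, SCR held 2.57, 2.92 and 1.46 CPM and KD held 2.35, 3.88 and 3.42 CPM. After LPS the libraries of WT had 1.26, 0.834 and 1.17 CPM, those of SCR 2.02, 2.29 and 1.98 CPM and those of KD 0.960, 2.10 and 2.05 CPM. The groups were separate in WT and in KD and overlapped in SCR. Means in medium and with LPS were 2.32 and 2.10 CPM in SCR, beside 4.26 and 1.09 CPM in WT. In WT NLRP1 fell, with a log2 fold change of -1.98 (SE 0.37, adjusted p = 6.1e-04). The change was -0.14 (SE 0.35, adjusted p = 0.827) in SCR, and -0.89 (SE 0.34, adjusted p = 0.102) in KD, where it passed without KD replicate 1 in medium (-1.07, adjusted p = 0.0460). In GENCODE v44lift37 the last 500 exonic bases of NLRP1 are overlapped by another gene on the same strand over 488 bases. The count table does not list that gene. Counting was restricted to 500 bases per gene of an older annotation, so whether this overlap affected the counts is not known.

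NLRC4 (chr2:32449522-32490801, minus strand) assembles on NAIP proteins that have bound bacterial flagellin or secretion needle proteins. It was the one member whose fall with LPS passed the threshold in all 3 conditions. NLRP3, NLRP1, NAIP and PYCARD also had negative log2 fold changes in all 3. In medium WT held 4.80, 4.99 and 7.15 CPM, SCR held 5.90, 6.39 and 5.77 CPM and KD held 5.50, 7.10 and 9.55 CPM. LPS gave 3.50, 2.75 and 2.05 CPM for WT, 2.77, 2.36 and 2.55 CPM for SCR and 2.09, 2.10 and 2.21 CPM for KD. None of the 9 LPS libraries reached the lowest library in medium. The decrease on the log2 scale was -1.03 (SE 0.26, adjusted p = 0.0088) in WT, -1.24 (SE 0.26, adjusted p = 0.0022) in SCR and -1.78 (SE 0.26, adjusted p = 7.5e-05) in KD. The WT call was lost without WT replicate 3 in medium (-0.82, adjusted p = 0.0725) or WT replicate 6 with LPS (-0.86, adjusted p = 0.0620), whereas the SCR and KD calls held in every such fit. The larger change in KD was not distinguished from the others, with a difference of -0.55 against SCR (95% interval -1.31 to 0.22) and -0.75 against WT (-1.52 to 0.02). In GENCODE v44lift37 the last 500 exonic bases of NLRC4 are overlapped over 187 bases by a gene on the opposite strand. The count table does not list that gene, and the counting used an older annotation. The strand setting of the counting is not given in the sources used here, so whether this overlap affected the counts is not known.

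NAIP (chr5:70263993-70321166, minus strand), the receptor that recruits NLRC4, passed the threshold in none of the conditions. Its lowest and highest libraries were 3.13 and 7.30 CPM, and its group means lay between 3.96 and 6.23 CPM. The LPS change was -0.17 (SE 0.26, adjusted p = 0.737) in WT, -0.22 (SE 0.25, adjusted p = 0.606) in SCR and -0.04 (SE 0.25, adjusted p = 0.946) in KD. NAIP has near-identical copies in its locus, and how reads that match several places were counted is not given in the sources used here, so its level is uncertain.

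AIM2 (chr1:159031389-159157633, minus strand), which binds double-stranded DNA in the cytosol and is known as an interferon-inducible gene, had the largest upward change of the 9 in WT and SCR. In medium WT held 2.31, 3.63 and 2.71 CPM, SCR held 1.95, 1.09 and 2.08 CPM and KD held 2.48, 2.48 and 0.854 CPM. After LPS the libraries of WT had 4.57, 4.84 and 4.69 CPM, those of SCR 5.67, 3.96 and 5.87 CPM and those of KD 2.53, 2.40 and 1.67 CPM. Every LPS library lay above every library in medium in WT and in SCR, and the KD groups overlapped. In SCR AIM2 rose, with a log2 fold change of 1.56 (SE 0.35, adjusted p = 0.0036), a call that held in each fit that left out 1 library. The change was 0.72 (SE 0.34, adjusted p = 0.177) in WT and 0.18 (SE 0.36, adjusted p = 0.799) in KD. These levels rest on 11 to 83 counts per library.

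PYCARD (chr16:31212807-31214771, minus strand), the adaptor, varied little. It ranged from 79.2 to 112 CPM over the 18 libraries, with group means for WT, SCR and KD of 101, 95.7 and 102 CPM in medium and of 85.9, 85.1 and 95.1 CPM with LPS. Its LPS change was -0.23 (SE 0.10, adjusted p = 0.131) in WT, -0.17 (SE 0.10, adjusted p = 0.249) in SCR and -0.11 (SE 0.10, adjusted p = 0.521) in KD. The 95% intervals of these changes together spanned -0.43 to 0.10 on the log2 scale.

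CASP1 (chr11:104896124-104905977, minus strand), the protease of the canonical pathway, had 3 values per group in medium, namely 60.6, 68.4 and 62.7 CPM for WT, 51.4, 50.7 and 61.8 CPM for SCR and 65.0, 42.7 and 56.3 CPM for KD. LPS gave 65.8, 62.8 and 52.9 CPM for WT, 66.4, 66.8 and 66.6 CPM for SCR and 71.1, 68.3 and 59.8 CPM for KD. In SCR the LPS libraries lay above those in medium, and in WT and KD the groups overlapped. The change was -0.08 (SE 0.13, adjusted p = 0.763) in WT, 0.29 (SE 0.13, adjusted p = 0.148) in SCR and 0.28 (SE 0.13, adjusted p = 0.181) in KD. Without KD replicate 1 in medium the KD change passed the threshold (0.42, adjusted p = 0.0294).

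CASP4 (chr11:104813593-104840093, minus strand), the caspase that binds intracellular LPS, had 3 values per group in medium, namely 38.0, 41.5 and 43.6 CPM for WT, 43.3, 41.7 and 36.8 CPM for SCR and 48.2, 50.4 and 45.3 CPM for KD. After LPS the libraries of WT had 56.4, 52.9 and 52.5 CPM, those of SCR 49.5, 43.7 and 50.7 CPM and those of KD 45.6, 44.1 and 48.9 CPM. WT and SCR libraries with LPS lay above those in medium, and KD libraries did not. CASP4 rose in WT, with a log2 fold change of 0.39 (SE 0.10, adjusted p = 0.0118). That call was lost without WT replicate 1 in medium (0.34, adjusted p = 0.0682), without WT replicate 4 with LPS (0.36, adjusted p = 0.0588), and in a fit with no filter (0.38, adjusted p = 0.0755). The change was 0.24 (SE 0.10, adjusted p = 0.121) in SCR and -0.05 (SE 0.10, adjusted p = 0.787) in KD.

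CASP5 (chr11:104864962-104893895, minus strand), the other LPS-binding caspase, was at the edge of detection. In medium it was counted 10, 8 and 1 times in WT, 0, 4 and 3 times in SCR, and 7, 0 and 0 times in KD. With LPS it was counted 0, 3 and 0 times in WT, 2, 1 and 3 times in SCR, and 0, 5 and 5 times in KD. The highest library held 0.725 CPM, and every group held at least 1 library at or below 3 counts. No fold change is given, and a change with LPS was not detectable at this depth. In a fit of all 34092 genes with a count, the smallest adjusted p of CASP5 over the 12 comparisons was 0.526.

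GSDMD (chr8:144635377-144645232, plus strand), the pore-forming protein, had 3 values per group in medium, namely 25.7, 27.9 and 22.5 CPM for WT, 29.6, 23.9 and 31.9 CPM for SCR and 27.1, 31.9 and 36.3 CPM for KD. LPS gave 29.1, 28.4 and 36.6 CPM for WT, 28.8, 23.7 and 29.6 CPM for SCR and 27.3, 23.1 and 23.4 CPM for KD. The WT libraries with LPS lay above those in medium, and the SCR and KD groups overlapped. The change was 0.31 (SE 0.15, adjusted p = 0.191) in WT, -0.06 (SE 0.15, adjusted p = 0.824) in SCR and -0.37 (SE 0.15, adjusted p = 0.118) in KD, where it passed without KD replicate 1 in medium (-0.47, adjusted p = 0.0377).

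**Figure D2:**
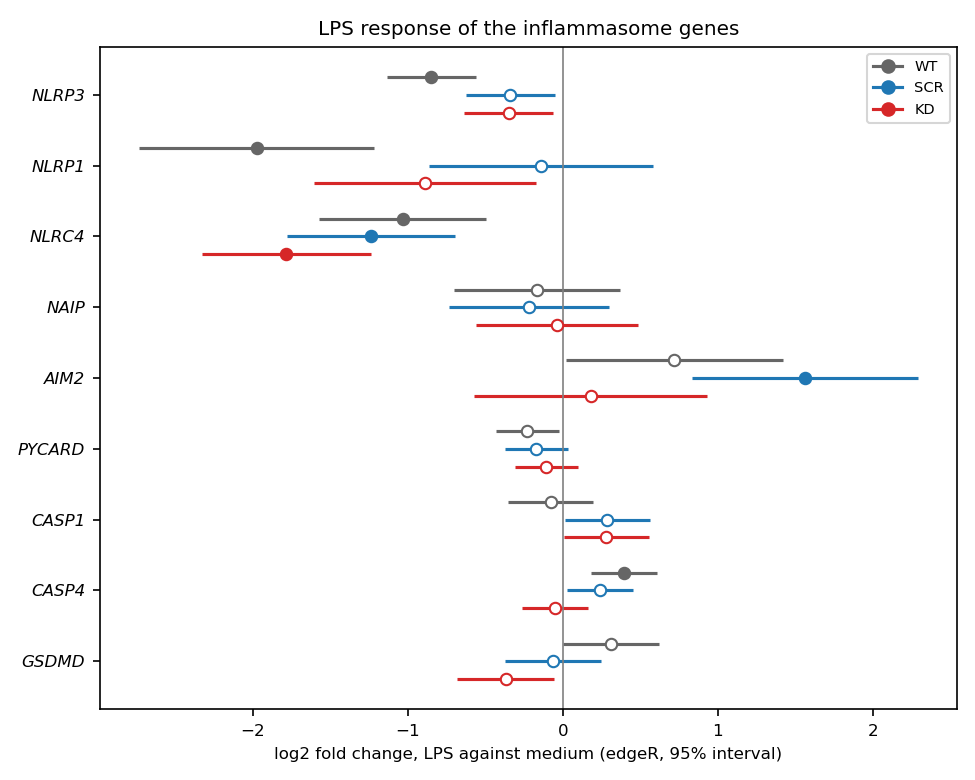
Log2 fold change with LPS against medium (horizontal axis) for the 9 tested genes (vertical axis) in WT, SCR and KD, with 95% intervals from edgeR; filled points passed an adjusted p of 0.05. NLRC4 is filled in all 3 conditions, NLRP3, NLRP1 and CASP4 are filled for WT and AIM2 for SCR, and no interaction between conditions passed for any of the 9 genes.

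Of the 10 markers of the monocytic state, 2 fell with LPS in WT and SCR and 3 in KD, and 0 rose. Of all genes tested, 7.26% (WT), 8.56% (SCR) and 5.05% (KD) fell. CD14 and CEBPB fell in all 3 conditions, and CD33 in KD (-0.50, adjusted p = 0.0137). For WT, SCR and KD the log2 fold changes of CD14 were -0.74, -1.53 and -1.07, and those of CEBPB were -0.64, -0.63 and -0.70. The marker with the highest fold change was SPI1 in WT and KD, with 0.51 (adjusted p = 0.0533) and 0.44 (adjusted p = 0.103). The 10 markers summed to 651 to 718 CPM (WT), 719 to 785 CPM (SCR) and 767 to 824 CPM (KD) in medium, and 648 to 666 CPM, 639 to 668 CPM and 660 to 709 CPM with LPS. Mean CD14 in WT, SCR and KD was 16.1, 35.4 and 26.6 CPM in medium and 9.68, 12.3 and 12.7 CPM with LPS. In medium, 1 marker was called higher in SCR than in WT and 2 in KD than in WT, with 0 lower. Of all genes, 3.23% and 11.7% were called there in either direction. The part of the markers in the changes of the sensors was not tested.

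The knockdown was compared with the scrambled control in medium and with LPS. None of the 9 tested members passed in medium, where 0.066% of all genes did, and none passed with LPS, where 0% of all genes did by edgeR. With LPS, 1963 genes had an unadjusted p under 0.05, and DESeq2 called 110 on all libraries and 639 on these 6 libraries without a filter. By edgeR, 425 were called with no filter on low counts, 161 on these 6 libraries alone and 0 with RLE size factors. The members called numbered 0 in each, where a gene without an adjusted p counts as not called. DESeq2 gave AIM2 no adjusted p in these fits, so its counts of 0 do not assess AIM2. In medium the member with the smallest p was CASP4 (0.24, SE 0.10, unadjusted p = 0.0301, adjusted p = 0.333), whose 3 KD libraries all lay above the 3 SCR libraries. With LPS it was AIM2, which was lower in each KD library than in each SCR library (-1.22, SE 0.35, 95% interval -1.94 to -0.50, unadjusted p = 0.0020, adjusted p = 0.201). The adjusted p of AIM2 ran from 0.0609 to 0.659 over the alternatives that gave one. Groups failed to overlap for 1 member in medium and for 2 with LPS, where 15.1% and 21.5% of all genes tested did.

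The knockdown was also compared with WT, and SCR with WT. These comparisons share libraries with each other and with KD against SCR. In KD against WT, 0 members passed in medium (11.7% of all genes) and 1, AIM2, passed with LPS (10.8% of all genes, and 4.55% in the lower direction). The log2 fold change of AIM2 was -1.09 (SE 0.35, adjusted p = 0.0470). It lay just inside the threshold and was lost when any single one of the 6 libraries was left out, with adjusted p from 0.0761 (without KD replicate 4) through 0.0891, 0.0950, 0.105 and 0.133 (WT replicates 4 and 5, KD replicate 5 and WT replicate 6) to 0.151 (without KD replicate 6). The log2 fold change stayed between -1.19 and -0.93 in these fits, and the adjusted p was 0.0501 in a fit with no filter. Beside it, AIM2 in SCR with LPS differed from WT by 0.13 (SE 0.33, adjusted p = 0.902). TRAFD1 in the same KD and WT libraries with LPS differed by -0.23 (SE 0.23, adjusted p = 0.563). In medium the member with the smallest p was GSDMD (0.33, SE 0.15, adjusted p = 0.166).

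In SCR against WT, 0 members passed in medium (3.23% of all genes) and 0 with LPS (0.114%). With LPS, same-numbered SCR and WT libraries deviated together (r = 0.163 to 0.261), though no label calls them pairs. With the number as a block 135 genes were called in place of 19, again with 0 members. The smallest p was that of NLRP3 in medium (-0.37, SE 0.14, adjusted p = 0.145) and of NLRP1 with LPS (0.95, SE 0.38, adjusted p = 0.282). NLRP1 was lower in SCR than in WT in medium in every library and higher in every library with LPS.

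**Figure D3:**
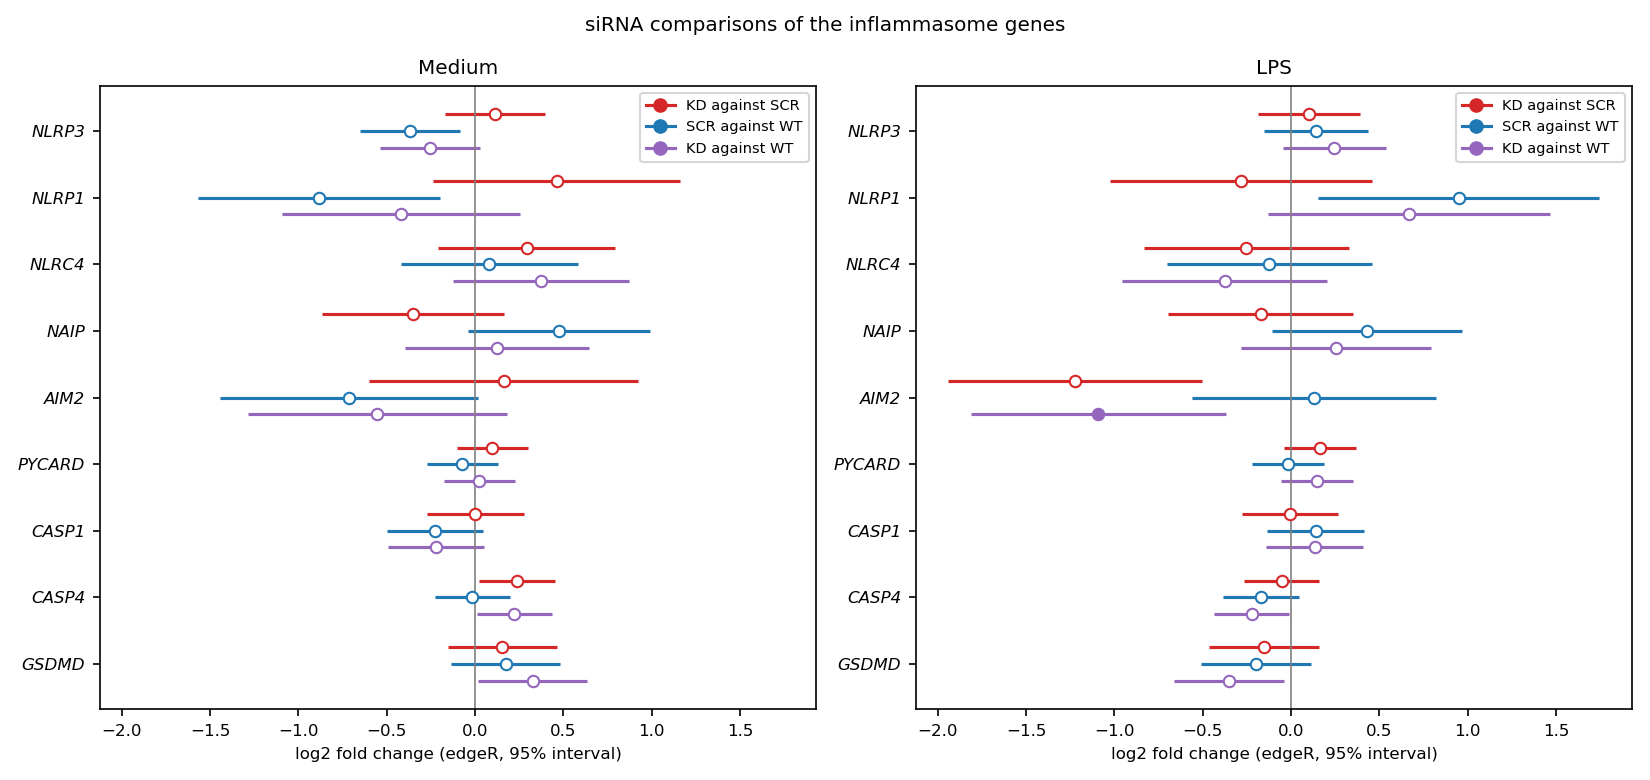
Log2 fold changes of the 9 tested genes (vertical axis) for KD against SCR, SCR against WT and KD against WT, in medium (left) and with LPS (right), with 95% intervals from edgeR; a filled point passed an adjusted p of 0.05. The one filled point is AIM2 in KD against WT with LPS. Intervals are not adjusted for the number of genes, and several of the open points have intervals that do not reach 0.

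Whether the LPS response itself differed between conditions was tested by interaction terms. No member passed in KD against SCR (0% of all genes, 1274 at an unadjusted p under 0.05, 3 by DESeq2 on all libraries and 132 by edgeR with no filter), in SCR against WT (0.234% of all genes) or in KD against WT (0.36%). The smallest p was that of AIM2 for KD against SCR (-1.38, SE 0.50, 95% interval -2.43 to -0.34, adjusted p = 0.603). For SCR against WT it was NLRP1 (1.83, SE 0.51, 95% interval 0.78 to 2.88, adjusted p = 0.248). For KD against WT it was GSDMD (-0.68, SE 0.21, 95% interval -1.12 to -0.24, adjusted p = 0.162), which passed without KD replicate 1 in medium (-0.78, adjusted p = 0.0275). The calls of NLRP3, NLRP1 and CASP4 in WT, and of AIM2 in SCR, are therefore not shown to be particular to those conditions.

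Of 42 other genes of the pathway, 34 were tested. With LPS, 8 rose and 1 fell in WT, 9 rose and 2 fell in SCR, and 8 rose and 0 fell in KD, which is 26.5%, 32.4% and 23.5% of those tested beside the shares over all genes given above. The median log2 fold change of the list was 0.07, 0.21 and 0.19 in the 3 conditions. The list was chosen with earlier results of these data known. It holds IL1B, which was used above to check the LPS labels, so these shares are a description and no test of the pathway.

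Among 10 substrates and exits, IL1B, IL1A and NINJ1 rose in all 3 conditions and none fell. IL1A had 0 counts in every WT and KD library in medium and 0 to 2 in SCR, against 6 to 13 (WT), 6 to 18 (SCR) and 1 to 16 (KD) with LPS, so that no fold change is given for it. It lost its SCR call without SCR replicate 1 or 3 in medium and 4 or 6 with LPS (adjusted p = 0.0705 to 0.142) and its KD call without KD replicate 3 in medium or 4 with LPS (0.0571 and 0.0591). IL1B, the cytokine precursor cut by caspase-1, went from 1.79 ± 0.19 to 29.2 ± 8.8 CPM (WT), from 2.39 ± 0.79 to 44.7 ± 11.2 CPM (SCR) and from 1.32 ± 0.27 to 39.2 ± 6.0 CPM (KD), as means ± SD of n = 3. Its log2 fold change was 4.01 (SE 0.27), 4.24 (SE 0.26) and 4.90 (SE 0.29). NINJ1, which ruptures the plasma membrane late in lytic death, had group means that went from 24.2 to 106 CPM (WT), from 28.5 to 109 CPM (SCR) and from 35.6 to 99.1 CPM (KD). Its log2 fold change was 2.14, 1.93 and 1.48. IL18, the other cytokine substrate, did not pass, with -0.33 (SE 0.37), 0.38 (SE 0.37) and 0.70 (SE 0.36), and neither did the gasdermin GSDME (0.07, -0.07 and -0.82) or the initiator caspase CASP8 (-0.33, 0.41 and 0.84). Without KD replicate 1 in medium, IL18 (1.12, adjusted p = 0.0487) and CASP8 (1.35, adjusted p = 0.0039) passed in KD. CASP8 also passed in KD by edgeR with no filter (0.83, adjusted p = 1.1e-06). The main fit gave nearly the same change (0.84) with an adjusted p of 0.101, so this low p depends on the filter. The KD libraries of CASP8 in medium were far apart, from 15.0 to 46.3 CPM. GSDME passed in KD without KD replicate 2 in medium (-1.02, adjusted p = 0.0293) and by DESeq2 on all libraries (adjusted p = 0.0496), and CASP8 in SCR by DESeq2 on the SCR libraries (adjusted p = 0.0443).

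Among 7 tested genes that act on NLRP3, 0 passed in WT and KD, and KCNK6, a potassium channel, rose in SCR (0.68, adjusted p = 0.0479). This call was lost without SCR replicate 2 or 3 in medium (0.0846 and 0.196) and without SCR replicate 4 or 6 with LPS (0.316 and 0.0708), by DESeq2 on the SCR libraries (0.0561) and in edgeR on these alone (0.0630). P2RX7, the ATP-gated channel, had 1.05 (SE 0.48, adjusted p = 0.164), 0.97 (SE 0.49, adjusted p = 0.187) and 0.29 (SE 0.49, adjusted p = 0.761). Its WT change passed in 3 alternatives, with adjusted p from 0.0217 to 0.0427. The list held 5 genes with 0 counts under the identifier that the annotation gives them. TXNIP is among these and is given no value, since the counting used another annotation release.

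Among 10 tested regulators and decoys, IL1RN, the antagonist of the IL-1 receptor, rose in all 3 conditions (1.28, 0.92 and 0.79, SE 0.14 in each). NLRP12 and CARD8 fell in SCR, NLRP12 by 1.10 (SE 0.31, adjusted p = 0.0172) and CARD8 by 0.37 (SE 0.11, adjusted p = 0.0214). NLRP12 was -0.83 (adjusted p = 0.0885) in WT and -0.90 (adjusted p = 0.0676) in KD. Its SCR call was lost without SCR replicate 1 or 3 in medium (adjusted p = 0.0621 and 0.0502) and without SCR replicate 4 or 6 with LPS (0.1001 and 0.0721), while WT passed without WT replicate 1 in medium (0.0397) and KD without KD replicate 1 in medium (0.0220). With no filter WT and KD passed (0.0363 and 0.0181), as did KD by DESeq2 on all libraries (0.0352). The CARD8 call was lost without SCR replicate 1 or 3 in medium (0.0615 and 0.0974) and SCR replicate 5 with LPS (0.110), and with no filter (0.0657). CARD16, which resembles the CARD of caspase-1 and can share reads with CASP1, was 0.27, 0.01 and 0.22 and passed in none.

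Among 7 tested other sensors, MEFV, GBP1, GBP2 and GBP5 rose in all 3 conditions, and PSTPIP1, a partner of the MEFV protein, fell in WT (-1.17, SE 0.28, adjusted p = 0.0060, and 0.0504 without WT replicate 3 in medium). The guanylate-binding proteins coat bacteria and release LPS to caspase-4. GBP2 had log2 fold changes of 2.92, 2.83 and 2.28 in WT, SCR and KD, and GBP5 of 1.68, 2.17 and 1.30. For MEFV, which encodes pyrin, they were 0.97 (SE 0.23), 1.00 (SE 0.23) and 0.85 (SE 0.23). The KD call of MEFV (adjusted p = 0.0210) was lost without KD replicate 3 in medium (0.0931) and without KD replicate 4 or 6 with LPS (0.0514 and 0.112), by DESeq2 on the KD libraries (0.126) and in edgeR on these alone (0.116).

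**Figure D4:**
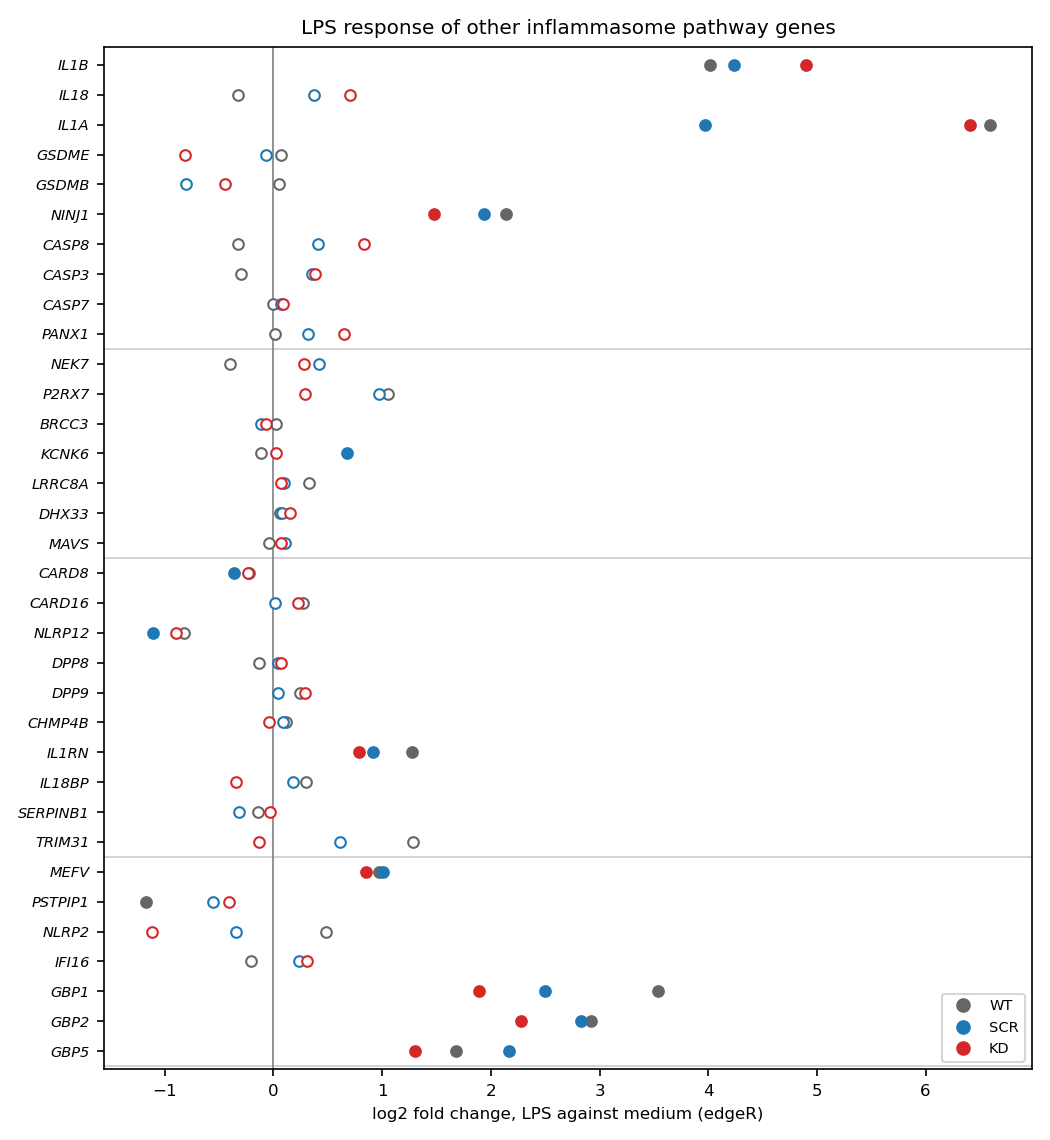
Log2 fold change with LPS against medium (horizontal axis) for the 34 tested pathway genes (vertical axis) in WT, SCR and KD; filled points passed an edgeR adjusted p of 0.05, and grey lines separate substrates and exits, genes that act on NLRP3, regulators and decoys, and other sensors. IL1B, IL1A, NINJ1, IL1RN, MEFV, GBP1, GBP2 and GBP5 are filled in all 3 conditions; the points of IL1A for WT and KD depend on the prior count, since its medium libraries held 0 counts.

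In the siRNA comparisons, KD against SCR gave 0 of 34 pathway genes past the threshold in medium and 0 with LPS. SCR against WT gave 1 in medium (2.94% beside 3.23% of all genes), GBP1, which rose (1.00, SE 0.27, adjusted p = 0.0437), and 0 with LPS. KD against WT gave 4 in medium (11.8% beside 11.7% of all genes) and 1 with LPS (2.94% beside 10.8%). In KD against WT in medium 3 rose, GSDME (0.94), NINJ1 (0.56) and GBP1 (1.06), and the DNA sensor IFI16 fell by 0.49, and with LPS NEK7, which binds NLRP3, rose by 1.06 (adjusted p = 0.0419). KD against WT and SCR against WT share the WT libraries. Each of these 6 calls was lost when some single libraries were left out, and the 5 in medium were also lost on the libraries of the comparison alone (adjusted p = 0.0929 to 0.202 by edgeR or DESeq2). GBP1 in SCR was lost when any single one of its 6 libraries was left out (adjusted p = 0.0612 to 0.158), and in KD without KD replicate 2 or 3 or WT replicate 1 (0.0569 to 0.0796). GSDME was lost without KD replicate 1 or 3 or any WT library (0.0518 to 0.147), NINJ1 without KD replicate 1 or 2 or WT replicate 1 or 3 (0.0752 to 0.144), IFI16 without KD replicate 2 or 3 or WT replicate 1 or 3 (0.0531 to 0.227), and NEK7 when any single one of its libraries other than KD replicate 6 was left out (0.0606 to 0.189).

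The 5 genes outside the members with the profile most like NLRP3 over the 18 libraries were NHERF1 (Pearson r = 0.938), CYSLTR1 (0.937), BMP8B (0.912), MTO1 (0.910) and NCOA6 (0.909), computed on log2 CPM. After group means were removed these values were 0.773, 0.753, 0.798, 0.727 and 0.867. The 5 most like CASP1 were SELENOI (0.861), KRT10 (0.855), TP53INP2 (0.850), LEFTY1 (0.835) and TAB2 (0.832), with 0.852, 0.770, 0.768, 0.852 and 0.738 after group means were removed. The libraries share the cell line and the 6 groups, and the 10 genes are those with the highest r of all genes tested, so these values are a description.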

How the data were processed

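RNA of 18 THP-1 samples was sequenced with QuantSeq. Per the labels the authors aligned reads with HISAT to GRCh37, and the deposited table holds raw read counts per Ensembl gene from featureCounts; tool settings for strand and for reads that match several places are not given in the sources used here. All 18 columns were used. Symbols and positions came from GENCODE v44lift37.

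Genes with low counts were removed (filterByExpr by group), leaving 16678. In R 4.3.3, edgeR 4.0.16 (TMM scaling and quasi-likelihood F test, tested on simulated data first) estimated a mean for each group from all 18 libraries at once. The 12 contrasts were Benjamini-Hochberg adjusted over all genes tested, threshold 0.05. SE is the log2 fold change over the square root of F. DESeq2 1.42.0, other scalings and filters, the libraries of a comparison alone, a replicate block and leaving out each library were alternatives. Same-numbered WT and SCR libraries with LPS deviated together (r = 0.163 to 0.261), and 0 members were called there with or without the block.

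The members and lists were chosen with earlier results of these data known. The text names the 10 members, in siRNA comparisons and interactions those past the threshold or else the one with the smallest p, 12 pathway genes fixed by name, and 5 genes each most like NLRP3 and CASP1. IL1A, IL1RN, KCNK6, CARD8, PSTPIP1, GBP1, NEK7, IFI16, CD14, CEBPB, CD33 and SPI1 were named after their values were seen.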

Additional observations from a re-analysis of the deposited data

Results flagged for a closer look

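GBP1, a guanylate-binding protein, had LPS responses that differed between KD and WT by the interaction term. Its level went from 1.52 ± 0.32 to 17.99 ± 2.05 CPM in WT and from 3.25 ± 1.31 to 11.9 ± 1.1 CPM in KD (SD, n = 3), a log2 difference of -1.65 (SE 0.34, adjusted p = 0.0369 by edgeR). In SCR it went from 3.08 ± 0.32 to 17.5 ± 1.5 CPM, a log2 fold change with LPS of 2.498 beside 3.538 in WT and 1.889 in KD, and its response differed by -0.61 between KD and SCR (adjusted p = 0.684) and by -1.04 between SCR and WT (adjusted p = 0.356). The call for KD against WT was lost on the libraries of the comparison alone (adjusted p = 0.128) and in 9 of 12 fits that left out 1 library, with adjusted p up to 0.142.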

How the results depend on the processing

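Over 96 single log2 fold changes and 1086 alternative values, 957 kept their direction and side of the threshold, 91 no longer passed, 20 newly passed and 18 turned direction, 0 of them among the 44 that passed. The 91 all fall on these 44, so the share over all 1086 values understates how often a call was lost. Another 9 alternative values had no adjusted p and were left out. The 1 member called in KD against WT with LPS became 0 without the filter on low counts, 0 with the replicate block and 0 to 0 when a library was left out. Leaving out 1 library gave 1 to 4 members called in the LPS response of KD and 0 to 1 in its interaction with WT, the higher value each time without KD replicate 1 in medium. The same fits gave 7 to 10 pathway genes in SCR (7 without SCR replicate 3 in medium) and 6 to 13 in KD (13 without KD replicate 1 in medium). The cause was not tested. The block changed no other count of members called. The numbers gave correlations that did not pass 0.1 in every pair in the other 5 group pairs, and all genes called with the block were 85 in place of 0 for KD against SCR with LPS and 183 in place of 11 in medium. No paired analysis was possible because LPS and medium libraries carry no shared numbers, for the 3 LPS responses.

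Turned directions arose only when a library was left out, in small LPS changes. In WT these were CASP1 (-0.139 to 0.0104), GSDME (-0.204 to 0.237), CASP8 (-0.579 to 0.197) and KCNK6 (-0.284 to 0.0397). In SCR they were NLRP1 (-0.379 to 0.0318), GSDMD (-0.169 to 0.0367), CARD16 (-0.0485 to 0.0633) and GSDME (-0.123 to 0.0278), and in KD NAIP (-0.151 to 0.0688), AIM2 (-0.17 to 0.411) and KCNK6 (-0.0765 to 0.0834). Depth limits NLRP1, AIM2 and CASP5 most, with as few as 10, 11 and 0 counts in a library.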
